A study of Mus musculus with 4 samples.

Results

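The genes described here are 9 components of the hemidesmosome and of the epidermal basement membrane. They were chosen by name: the laminin chains Lama3, Lama5, Lamb3 and Lamc1, the integrin chains Itga6 and Itgb4, the plakins Dst and Plec, and the tetraspanin Cd151. All 9 were found among the 24441 genes of the deposited table, and all 9 were expressed highly enough to be tested. The study asked how loss of gasdermin D (GSDMD), the pore-forming executor of pyroptosis, changes the skin in a mouse model of scleroderma. Skin RNA was sequenced in 4 libraries, 2 from GSDMD KO mice (GSDMD-/-, made by injecting Cas9 mRNA and guide RNA into C57BL/6 zygotes) and 2 from WT C57BL/6 mice. All were females labelled as postnatal week 8, and all, the WT controls included, had injections of bleomycin (BLM), a fibrosis-inducing antibiotic, under the skin every other day for 28 days. No library without BLM is in this comparison, so a difference between the groups is a difference between genotypes in treated skin. The knockout is not restricted to a cell type. Values are FPKM, fragments scaled by transcript length and sequencing depth, so levels can be compared between genes. Log2 fold changes are differences of log2(FPKM + 1), KO minus WT, each with the standard error (SE) of the fit.

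Basal keratinocytes are held to the dermis by hemidesmosomes. In these plaques an integrin made of the Itga6 and Itgb4 chains spans the cell membrane. Inside the cell, the plakins plectin (Plec) and the epithelial form of dystonin (Dst) tie it to the keratin filaments of Krt5 and Krt14, and outside the cell it binds a laminin that holds the Lama3 and Lamb3 chains. Collagen XVII (Col17a1) and Cd151, which associates with laminin-binding integrins, belong to the same plaque, and collagen VII (Col7a1) anchors the membrane to the dermis below. Loss of these proteins is known to cause blistering of the skin. Lama5 and Lamc1 are chains of laminins that lie in basement membranes more widely, around vessels, muscle and nerve as well as under the epidermis, and plectin is abundant in skeletal muscle.

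The RefSeq table of promoters held windows for 4 of the 9 genes, Dst, Lamb3, Lama5 and Cd151. Of these 4 genes, Dst and Lamb3 stood higher in both GSDMD KO libraries, and the groups overlapped in Lama5 and Cd151. Each sequence is the stretch of 150 bases before an annotated start, from build GRCm38.p6, and each matched mm9, the build of the deposited loci, at 1 place. The Lamb3 sequence was ended after 113 bases, where an annotated exon begins. Capitals mark the GC box, GGGCGG on either strand, a motif bound by Sp1 and related factors.
Dst, upstream start, mm9 chr1:34068290-34068439, plus strand: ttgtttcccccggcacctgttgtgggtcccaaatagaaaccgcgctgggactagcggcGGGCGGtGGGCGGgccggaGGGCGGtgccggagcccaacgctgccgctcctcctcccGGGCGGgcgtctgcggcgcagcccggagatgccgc
Dst, downstream start, mm9 chr1:34216955-34217104, plus strand: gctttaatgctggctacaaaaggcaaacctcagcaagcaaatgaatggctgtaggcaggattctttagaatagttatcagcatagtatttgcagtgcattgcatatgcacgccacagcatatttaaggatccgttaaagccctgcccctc
Lamb3, mm9 chr1:195128038-195128150, plus strand: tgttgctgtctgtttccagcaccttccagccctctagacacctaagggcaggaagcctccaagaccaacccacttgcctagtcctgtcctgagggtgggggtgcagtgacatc
Lama5, mm9 chr2:179960565-179960714, minus strand: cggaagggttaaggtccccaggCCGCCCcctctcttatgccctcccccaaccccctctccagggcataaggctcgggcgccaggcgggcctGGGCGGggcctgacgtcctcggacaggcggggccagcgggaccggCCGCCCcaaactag
Cd151, upstream start, mm9 chr7:148653111-148653260, plus strand: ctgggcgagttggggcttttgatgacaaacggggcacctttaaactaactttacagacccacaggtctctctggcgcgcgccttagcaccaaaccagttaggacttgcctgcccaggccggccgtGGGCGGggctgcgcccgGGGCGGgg
The upstream Dst window held 4 GC boxes, the Lama5 window 3 and the upstream Cd151 window 2, whereas the downstream Dst window and the Lamb3 window held 0. Of the 7 windows of these 4 genes, the other 2, at a downstream start of Cd151 and of Lamb3, are not shown and held 0 as well. Of 32851 promoter windows of this length, 28.6% held at least 1 GC box. The GC content was 74.0% in the upstream Dst window and 44.0% in the downstream window of the same gene. The AP-1 motif TGANTCA was found in none of these windows, against 4.24% of all windows, and neither was the TATA box TATAAA, against 7.57%, or the CCAAT box CCAAT, against 24.5%. A match of letters is a description of the sequence and not a binding site. The Dst row of the table spans both starts, so its value cannot be divided between the epithelial form, which begins at an internal start, and the longer forms of muscle and nerve.

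The libraries differed in more than genotype. Gsdmd itself had 14.0 and 18.2 FPKM in the WT skins, against 3.53 and 2.26 FPKM in the KO skins. Keratins mark the tissue as skin: the sum of 7 basal keratinocyte markers (Krt5, Krt14, Krt15, Trp63, Cdh3, Sfn and Perp) was 2754 and 2407 FPKM in the WT skins, against 5932 and 6372 FPKM in the KO skins. All 7 were higher in both KO libraries, as were 35.3% of all tested genes. KO replicate 2 stood apart. Its summed fibroblast markers were at 46.1 FPKM against 220.6 to 494.0 in the other libraries, its endothelial markers at 8.69 against 74.2 to 111.1, and its adipocyte markers at 223.6 against 2122 to 5888. Macrophage markers summed to 1491 and 1364 FPKM in the WT skins, against 500.0 and 68.3 FPKM in the KO skins, and skeletal muscle markers to 21022 and 19789 FPKM in the WT skins, against 13241 and 12858 FPKM in the KO skins. Suprabasal keratinocyte markers were at 7747 FPKM in KO replicate 1 and 1430 in KO replicate 2, and hair follicle markers at 359.9 FPKM in KO replicate 1 and at most 15.8 in the other libraries. In addition, 4 of 15 Y-linked genes were above 0 in KO replicate 2 and 0 in each of the other libraries, although the mice are labelled female. Sebaceous gland markers summed to 768.2 and 834.9 FPKM in replicate 1 of either group and to 2096 and 2469 FPKM in replicate 2. However, 4 of the 7 were higher in both KO libraries, where 35.3% of all tested genes were. The median log2 fold change of the list was 2.74, or 1.69 without KO replicate 2. Smooth muscle and pericyte markers summed to 674.8 FPKM in KO replicate 2 against 1061 to 1369 FPKM elsewhere. Of the hair follicle markers 4 were at 0 in at least 1 library, and no marker of the other lists was. The log2 fold change of each gene of the 9 is therefore also given without KO replicate 2, as is the median of each gene list whose median is given from here on. In whole skin, fewer cells of a type and less RNA per cell cannot be told apart.

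**Figure D1:**
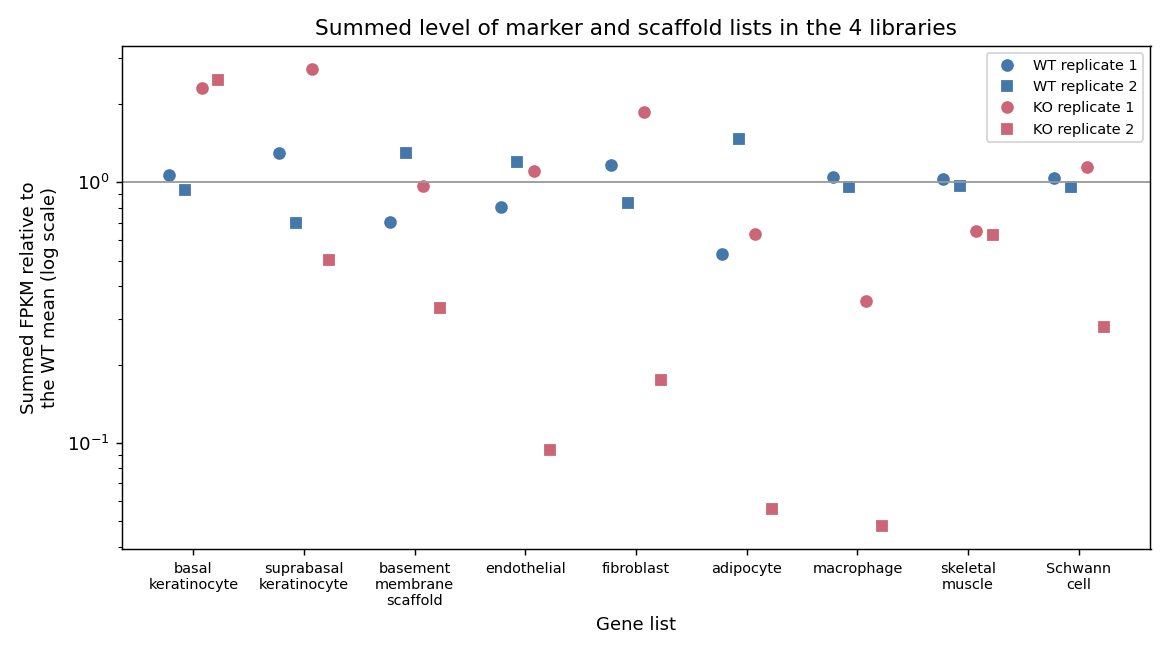
Summed FPKM of marker lists and of the basement membrane scaffold list in each library, divided by the mean of the WT libraries, on a log axis; circles are replicate 1 and squares replicate 2, blue for WT and red for GSDMD KO. Basal keratinocyte markers are above the WT libraries in both KO libraries, while endothelial, fibroblast, adipocyte and Schwann cell markers are low in KO replicate 2 alone.

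Lama3 and Lamb3, chains of the epidermal laminin, were higher in both GSDMD KO libraries than in both WT libraries. The Lama3 locus lies on chromosome 18 between 12492533 and 12741521 (mm9, as for each locus that follows). Lama3 had 2.61 and 2.88 FPKM in the WT skins, against 4.77 and 6.15 FPKM in the KO skins. The means were 2.74 ± 0.193 and 5.46 ± 0.971 FPKM (SD, n = 2 each), a ratio of 1.99, and the log2 fold change was 0.78 (SE 0.25, limma adjusted p = 0.260), or 0.63 without KO replicate 2. It was the lowest of the 9 genes in the WT libraries, with an estimated 426 to 809 fragments behind a value. Lamb3, on chromosome 1 from 195128188 to 195170072, stood at 8.65 and 12.6 FPKM in the WT skins, against 15.3 and 22.0 FPKM in the KO skins, so the gap between the groups was smaller than the spread within each. Its log2 fold change was 0.76 (SE 0.31, limma adjusted p = 0.302), or 0.51 without KO replicate 2. Lama3 and Lamb3 thus stood in the same order of groups, and neither passed the threshold.

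In the more widely laid laminin chains the groups overlapped, and the difference of these chains from Lama3 and Lamb3 was not tested. Lama5, on chromosome 2 from 179911078 to 179960564, stood at 5.44 and 7.17 FPKM in the WT skins, against 8.14 and 5.60 FPKM in the KO skins, and the groups overlapped. The log2 fold change of 0.10 (SE 0.29, limma adjusted p = 0.870) lay within its error. It was 0.33 without KO replicate 2 and 0.27 without WT replicate 2, and it turned to -0.02 with median-ratio scaling, to -0.07 without WT replicate 1 and to -0.14 without KO replicate 1. Lamc1, on chromosome 1 from 155066052 to 155179916, was level across 3 libraries and low in the fourth: 14.7 and 16.8 FPKM in WT, 16.3 FPKM in KO replicate 1 and 5.15 FPKM in KO replicate 2. The log2 fold change was -0.70 (SE 0.52, limma adjusted p = 0.489). It was 0.05 without KO replicate 2 and -1.44 when KO replicate 1 was left out instead. KO replicate 1 held 3.17 times the Lamc1 FPKM of KO replicate 2, and on the log2(FPKM + 1) scale KO replicate 2 minus KO replicate 1 was -1.50. Of the 9 genes, Lamc1 was the 1 that stood at least 1 log2 unit lower in KO replicate 2 than in KO replicate 1, and 9.99% of the 13027 tested genes did so. Endothelial, fibroblast and Schwann cell markers were low in the same library, and their part in the Lamc1 value was not tested.

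**Figure D2:**
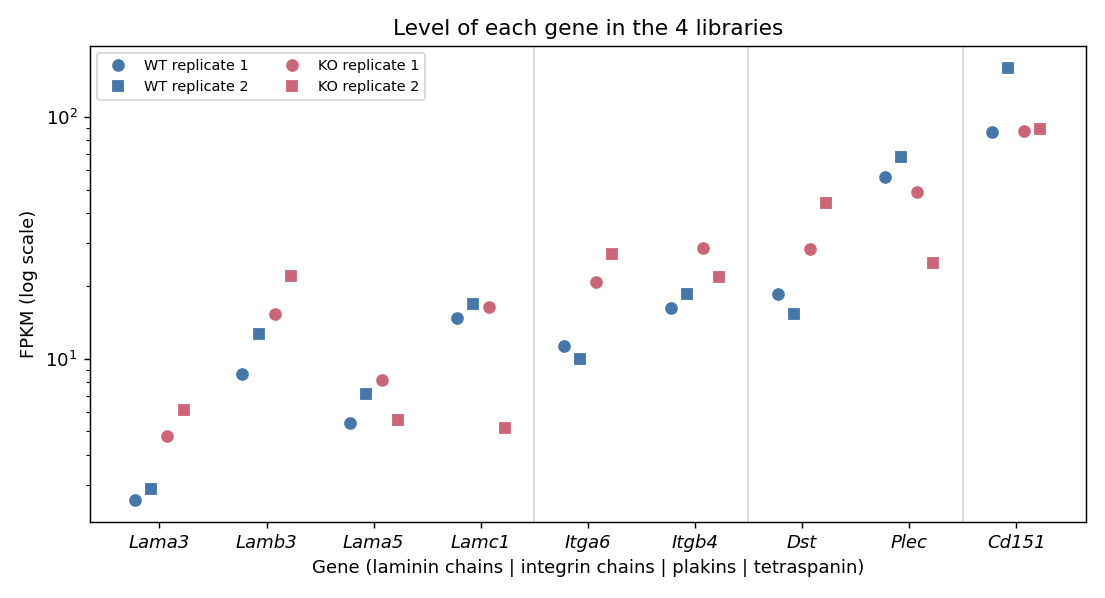
FPKM of the 9 genes on a log axis in each library; circles are replicate 1 and squares replicate 2, blue for WT and red for GSDMD KO. Lama3, Lamb3, Itga6, Itgb4 and Dst lie higher in both KO libraries, Plec lies lower in both, and Lamc1 is at 5.15 FPKM in KO replicate 2 against 14.7 to 16.8 in the others.

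Itga6 had the largest difference of the 9 genes with all 4 libraries. This integrin chain, on chromosome 2 from 71624996 to 71696484, stood at 11.3 and 10.00 FPKM in the WT skins, against 20.8 and 27.1 FPKM in the KO skins. The means of 10.6 ± 0.908 and 23.9 ± 4.41 FPKM (SD, n = 2 each) were in a ratio of 2.25, and the log2 fold change was 1.09 (SE 0.26, limma adjusted p = 0.248). It came to 0.91 when KO replicate 2 was left out and to 1.27 when KO replicate 1 was. Itgb4, its partner chain, on chromosome 11 from 115836039 to 115869725, stood at 16.2 and 18.5 FPKM in the WT skins, against 28.7 and 21.8 FPKM in the KO skins. Its KO libraries again lay above both WT libraries, with a ratio of means of 1.46 and a log2 fold change of 0.51 (SE 0.26, limma adjusted p = 0.359). That fold change came to 0.70 with KO replicate 2 left out and to 0.32 with KO replicate 1 left out. The KO libraries were ordered in opposite ways, since Itga6 was higher in KO replicate 2 and Itgb4 in KO replicate 1. An exon of Itgb4 overlaps the annotated gene B230344G16Rik on the opposite strand, and whether strand was used in counting is not given in the sources used here.

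The plakins differed in direction. Dst, on chromosome 1 from 33965070 to 34365507, stood at 18.5 and 15.3 FPKM in the WT skins, against 28.4 and 44.1 FPKM in the KO skins. Its means of 16.9 ± 2.25 and 36.2 ± 11.1 FPKM (SD, n = 2 each) were in a ratio of 2.14, with a log2 fold change of 1.03 (SE 0.30, limma adjusted p = 0.248). Without KO replicate 2 the log2 fold change of Dst was 0.72. Plec, on chromosome 15 from 76001404 to 76061808, stood at 56.4 and 68.1 FPKM in the WT skins, against 48.8 and 24.9 FPKM in the KO skins. It was the only gene of the 9 with both KO libraries below both WT libraries, with a log2 fold change of -0.81 (SE 0.38, limma adjusted p = 0.337). Leaving out KO replicate 2 gave -0.34, and leaving out KO replicate 1 gave -1.28. Of 7 skeletal muscle markers, 4 were also lower in both KO libraries, as were 20.5% of all tested genes. The median log2 fold change of the list was -0.68, or -0.51 without KO replicate 2, and their part in the Plec value was not tested. Plec shares exonic sequence with Parp10, which had a log2 fold change of -0.56, and Dst with the opposite-strand gene Gm16750.

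Cd151, on chromosome 7 from 148653261 to 148657380, was the most abundant of the 9 genes. It had 86.2 and 159.9 FPKM in the WT skins, against 87.7 and 89.0 FPKM in the KO skins, so WT replicate 2 stood apart and the other 3 libraries lay close together. The log2 fold change was -0.41 (SE 0.35, limma adjusted p = 0.546). It was 0.03 without WT replicate 2, -0.85 without WT replicate 1 and -0.42 without KO replicate 2. An exon of Cd151 overlaps Gm10575 on the opposite strand.

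Across the 9 genes, 0 passed an adjusted p under 0.05 with an absolute log2 fold change above 1 in limma, and 0 of the 13027 tested genes (0.0%) did. At an unadjusted p under 0.05, without a limit on the fold change, there were 3 of the 9 genes and 2230 of all genes (17.1%). Itga6 and Dst also had a log2 fold change above 1, a share of 2 in 9 where 6.16% of all tested genes were higher by that rule. With median-ratio scaling their log2 fold changes were 0.96 and 0.90, under that limit. Both KO libraries lay above both WT libraries in 5 of the 9 genes, and in 35.3% of all tested genes. They lay below in 1 of the 9, and in 20.5% of all tested genes. Over the 9 genes the log2 fold change had a median of 0.51, against 0.11 over all genes tested, a median that was -0.01 with median-ratio scaling. Without KO replicate 2 these medians were again 0.51 and 0.11. The smallest two-sided p that an exact permutation of 2 against 2 libraries allows for any gene is 0.333. The labels do not say more of the replicates than their number, and the p-values measure the spread between these libraries only.

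**Figure D3:**
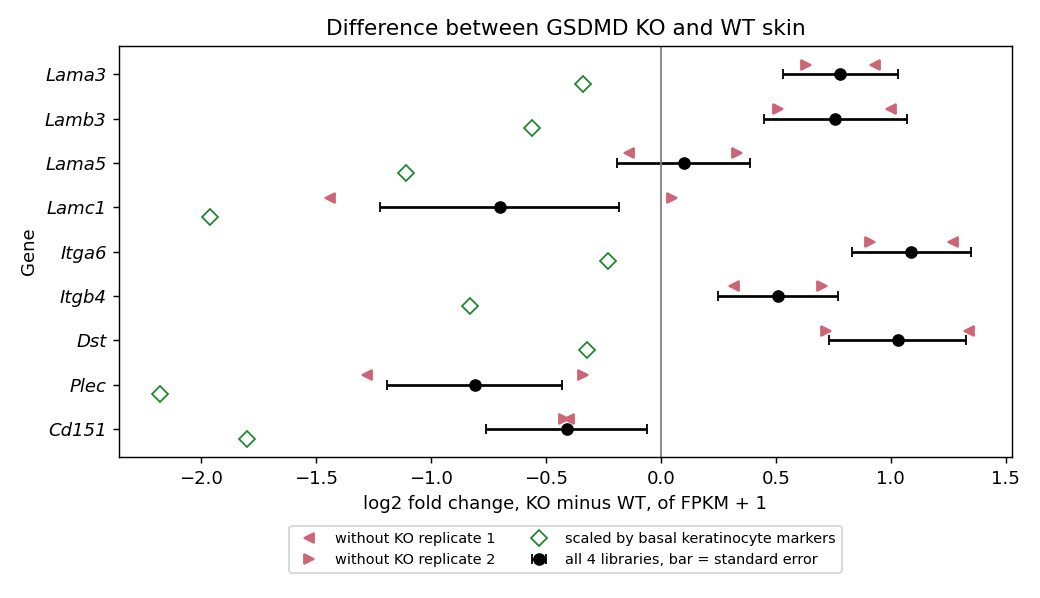
Log2 fold change of FPKM + 1 between GSDMD KO and WT for the 9 genes; black points are the fit to all 4 libraries with its standard error, red triangles leave out a KO library, and green diamonds are the fit after scaling each library by its basal keratinocyte markers. Itga6, Dst, Lama3, Lamb3 and Itgb4 are above 0 with all libraries and without either KO library, and all 9 diamonds lie below 0.

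In order of their mean level in WT skin the genes were Cd151, Plec, Itgb4, Dst, Lamc1, Itga6, Lamb3, Lama5 and Lama3, from 123.0 down to 2.74 FPKM. Neighbours whose WT values overlapped were Itgb4 with Dst, Dst with Lamc1, and Itga6 with Lamb3. In the GSDMD KO libraries Cd151 was still the highest, at 88.3 ± 0.903 FPKM (SD, n = 2), but Plec no longer stood apart from Itgb4, nor Lama5 from Lama3. The order of Lamc1 and Itga6 was reversed: both WT libraries had more Lamc1 than Itga6 in any WT library, and both KO libraries had more Itga6 than Lamc1 in any KO library.

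The balance between partner chains was compared as a ratio of FPKM within each library, which no scaling of a library can change. Itga6 stood at 0.698 and 0.540 of Itgb4 in WT and at 0.725 and 1.24 of it in KO replicates 1 and 2. The groups did not overlap, although KO replicate 1 was close to WT replicate 1. Lama3 was 0.301 and 0.229 of Lamb3 in WT and 0.312 and 0.280 in KO libraries, and these overlapped. Lamb3 was above Lama3 in every library. Dst was 0.327 and 0.225 of Plec in WT and 0.581 and 1.77 of it in KO libraries. Itgb4 was 0.257 and 0.353 of Itgb1, the beta chain of many other integrins, in WT and 0.586 and 0.597 of it in KO libraries. Lama5 was 0.370 and 0.426 of Lamc1 in WT and 0.499 and 1.09 in KO libraries. The differences of these ratios were not tested.

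**Figure D4:**
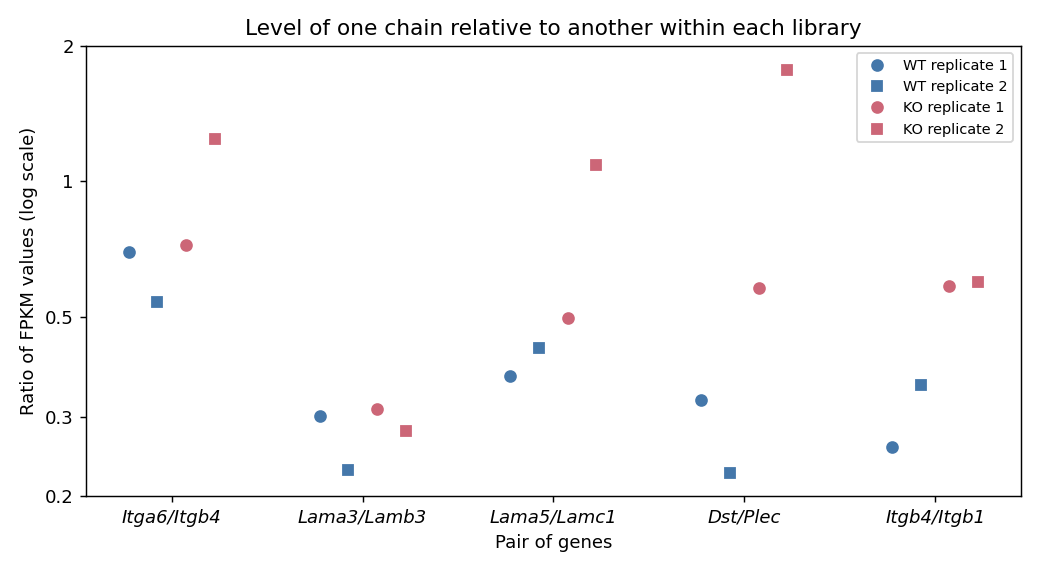
Ratio of the FPKM of one gene to that of another in each library, on a log axis; circles are replicate 1 and squares replicate 2, blue for WT and red for GSDMD KO. Lama3/Lamb3 overlaps between groups, and Dst/Plec runs from 0.225 in WT replicate 2 to 1.77 in KO replicate 2.

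The hemidesmosome genes were then set against the basal keratinocyte markers, since those were also higher in GSDMD KO skin. The mean log2 FPKM of the 7 markers was 7.08 and 6.71 in WT and 8.15 and 8.46 in KO libraries, a difference of 1.41 log2 units. Relative to that mean, Itga6 stood at -3.59 and -3.39 log2 units in WT and at -3.77 and -3.70 in KO libraries. Itgb4 stood at -3.07 and -2.50 in WT and at -3.31 and -4.01 in KO libraries, and Lama3 at -5.70 and -5.19 in WT and at -5.90 and -5.84 in KO libraries. Measured in this way all 9 genes were lower in both KO libraries, and so were 86.6% of all tested genes. When each library was scaled by its marker mean, the fitted log2 fold changes were -0.23 for Itga6, -0.32 for Dst, -0.34 for Lama3, -0.56 for Lamb3 and -0.83 for Itgb4. They were -1.11 for Lama5, -1.80 for Cd151, -1.96 for Lamc1 and -2.18 for Plec, while the median of all tested genes was -1.09. After this scaling Plec, Cd151 and Lamc1 passed the threshold (limma adjusted p = 0.0259, 0.0297 and 0.0383), as did 51.7% of all tested genes, in which a count of 3 in 9 is no larger than the background. The scaling rests on 7 genes that differed among themselves. The ratio of KO to WT means was 2.16 for Krt14 and for Cdh3 and 2.22 for Krt5, close to the ratios of Itga6 and Dst, but 2.60 for Sfn, 3.17 for Trp63, 3.31 for Perp and 3.63 for Krt15.

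Most other genes of the anchoring complex were also higher in both KO libraries. Of 9 listed partners, 7 were tested. Both KO libraries lay above both WT libraries in 6 of these (35.3% of all tested genes) and below in 1 (20.5% of all), their median log2 fold change was 1.09, or 1.01 without KO replicate 2, and 0 passed the threshold in limma. Krt5 and Krt14 are in this list and in the basal marker list. Col17a1, the transmembrane collagen of the plaque, had 48.5 and 50.3 FPKM in the WT skins, against 104.3 and 108.3 FPKM in the KO skins, with a log2 fold change of 1.09 (SE 0.22, limma adjusted p = 0.248). Col7a1 had 5.57 and 5.48 FPKM in the WT skins, against 10.9 and 7.99 FPKM in the KO skins. Itga3, the alpha chain of the other main epidermal laminin receptor, had 7.97 and 7.10 FPKM in the WT skins, against 15.5 and 13.0 FPKM in the KO skins. Fermt1, a kindlin that activates integrins in keratinocytes, had 1.51 and 1.36 FPKM in the WT skins, against 3.91 and 8.51 FPKM in the KO skins. The exception was Itgb1, with 62.8 and 52.4 FPKM in the WT skins, against 49.0 and 36.5 FPKM in the KO skins (log2 fold change -0.43, adjusted p = 0.425). All 5 plakins outside the 9 genes (Dsp, Evpl, Ppl, Macf1 and Eppk1) were higher in both KO libraries, with log2 fold changes from 0.68 to 1.53 and adjusted p-values from 0.248 to 0.322. Their median was 1.13, and 1.30 without KO replicate 2. Dsp and Ppl, which serve desmosomes and the cornified envelope, had log2 fold changes of 1.53 and 1.47.

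Most scaffold genes of basement membranes were, like Lamc1, low in KO replicate 2, while Agrn, Col4a3, Col4a5 and Col4a6 were highest there. Of 12 listed scaffold genes 10 were tested, 7 with a log2 fold change below 0, and their median was -1.15. Without KO replicate 2 the median was 0.03, with 5 genes above 0 and 5 below. In 6 of the 10 the groups overlapped. Both KO libraries lay above both WT libraries in 3 and below in 1, against 35.3% and 20.5% of all tested genes. Col4a1, a chain of the collagen IV of most basement membranes, had 27.1 and 62.2 FPKM in WT, 35.5 FPKM in KO replicate 1 and 3.97 FPKM in KO replicate 2. Nidogen 1 (Nid1), which links laminin to collagen IV, had 11.7 and 15.8 FPKM in the WT skins, against 15.0 and 1.30 FPKM in the KO skins. Hspg2, which encodes perlecan, had 18.0 and 28.5 FPKM in the WT skins, against 16.7 and 4.86 FPKM in the KO skins. The median difference between KO replicate 2 and KO replicate 1 was -1.54 log2 units over the 10 scaffold genes, 0.02 over the 9 hemidesmosome and laminin genes, and 0.03 over all tested genes. Collagen IV chains of another kind were low but ordered the other way: Col4a6 had 0.243 and 0.341 FPKM in the WT skins, against 1.19 and 1.95 FPKM in the KO skins, and Col4a5 had 0.693 and 0.350 FPKM against 1.46 and 2.34 FPKM. Both reached the filter of 1 FPKM in the KO libraries alone, so their place among the tested genes rests on the group in which they were higher. Col4a3 and Col4a4, of the same kind, were not tested. Col4a3 had 0.0868 and 0.0614 FPKM in the WT skins, against 0.167 and 0.317 FPKM in the KO skins. Col4a4 had 0.117 and 0.119 FPKM in the WT skins, against 0.0966 and 0.0663 FPKM in the KO skins. Agrn, which encodes agrin, had 10.6 and 13.8 FPKM in the WT skins, against 23.7 and 25.9 FPKM in the KO skins, a log2 fold change of 0.97 (adjusted p = 0.248). Of 6 other laminin chains listed 4 were tested, and the groups overlapped in all 4, with a median log2 fold change of -0.49, or -0.02 without KO replicate 2. Lamb1, the usual partner of Lama5 and Lamc1, had 8.45 and 18.3 FPKM in the WT skins, against 10.7 and 2.54 FPKM in the KO skins.

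Laminin receptors other than Itga6 and Itgb4 stood on both sides. Of 7 tested, 3 were higher and 3 lower in both KO libraries, where 35.3% and 20.5% of all tested genes were. Their median log2 fold change was 0.26, or 0.62 without KO replicate 2. Sdc1, the main syndecan of keratinocytes, had 58.7 and 39.7 FPKM in the WT skins, against 134.7 and 138.3 FPKM in the KO skins, with a log2 fold change of 1.48 (SE 0.28, limma adjusted p = 0.248). Itga7, the alpha chain of the muscle laminin receptor, had 51.1 and 83.1 FPKM in the WT skins, against 40.9 and 15.5 FPKM in the KO skins. Among 6 other integrin alpha chains tested, Itga3 and Itgav were higher and 4 were lower in both KO libraries. Of these 4, Itga4 had 2.82 and 1.60 FPKM in the WT skins, against 0.741 and 0.358 FPKM in the KO skins. It reached the filter of 1 FPKM in the WT libraries alone, so its place among the tested genes rests on the group in which it was higher. Among 6 other tetraspanins, Cd9 was higher in both KO libraries, at 132.8 and 100.7 FPKM in the WT skins, against 183.9 and 341.0 FPKM in the KO skins. Lower in both KO libraries were Cd37 and Cd53, which are tetraspanins of leukocytes, with log2 fold changes of -2.59 and -2.27 (limma adjusted p = 0.248 and 0.254), and the widely expressed Cd81, with -0.34. The median log2 fold change was -0.75 for these integrin chains and -0.43 for these tetraspanins, or -0.37 and -0.16 without KO replicate 2. Over all 41 tested genes of these lists, 18 were higher and 10 lower in both KO libraries, where 35.3% and 20.5% of all tested genes were. The 18 include Col4a5 and Col4a6 and the 10 include Itga4, which reached the filter in 1 group alone. At an unadjusted limma p under 0.05 and a log2 fold change above 1, 9 of the 41 were higher, against 6.16% of all tested genes. With a log2 fold change below -1, 4 were lower, against 539 of 13027. After adjustment 0 of the 41 passed the threshold.

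The 5 tested genes nearest to the mean pattern of the 9 genes, by the root mean square distance of centred log2 values over the 4 libraries, were Pqlc1, Zdhhc1, Tmem131l, Ip6k1 and Adam23, at distances of 0.0095 to 0.023 log2 units. The mean pattern itself was shallow, at -0.24 and -0.02 in WT and 0.21 and 0.05 in KO replicates 1 and 2. It averages genes that differed in opposite directions.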

How the data were processed

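Groups and replicate numbers were taken from the sample titles. Per the submitters' processing notes, HISAT2 version 2.0.1, StringTie version 2.0.6 and the build mm9 were used, and the paper's methods describe featureCounts and DESeq2. The deposited table is named as counts, but 99.993% of its values above 0 are not whole, and they were read as FPKM that the authors scaled for length and depth before deposit (column sums 448544 to 462251). A count model was therefore not used. Of 20310 genes found by symbol in the GENCODE annotation of mm9, 99.2% overlapped their annotated locus. From the steps of low values in 2710 single-transcript genes, a fragment on 1 kb was estimated to be worth 0.0572 to 0.0786 FPKM, so that 426 to 15248 fragments stood behind a value of the 9 genes. No interval was computed from this rough estimate.

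The 13027 genes with at least 1 FPKM in 2 or more libraries were fitted as log2(FPKM + 1) with limma version 3.58.1 (R version 4.3.3), genotype as the only term, a mean-variance trend and Benjamini-Hochberg adjustment over all of them. The log2(FPKM + 1) scale understates changes of low genes. The script was tested on simulated data. The 9 genes and all lists were chosen with earlier results of these data known. Named genes are the 9 genes, the list genes where a list is described, Gsdmd, and the 5 genes nearest to the mean pattern. The correlation of deviations of same-numbered libraries was -0.20, and the libraries were treated as unpaired. The filaggrin marker was not used here, and 1 gene of the lists is not reported here. Alternatives were other pseudocounts (0.1 and 0.5), filters, scalings, no trend, the replicate number as a block, and leaving out each library; a crossed block was chosen after seeing the data. Python (version 3.11.15) with pandas (version 2.3.3) was used for all tables.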

Additional observations from a re-analysis of the deposited data

How the results depend on the processing

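No gene was called with all 4 libraries under the other pseudocounts, filters, scalings by upper quartile, median ratio or total, without the trend, or with the replicate block, where 0 of all genes and 0 of the 9 genes passed; the block, and likewise the crossed block chosen after seeing the data, changed no call (907 and 819 genes higher and 686 and 681 lower at an unadjusted p under 0.05 and a log2 fold change beyond 1, against 802 and 539 without a block). That split was 614 higher and 700 lower with median-ratio scaling and 656 and 667 with upper-quartile scaling. The signs of Lama3, Lamb3, Itga6, Itgb4, Dst and Plec held in each of these in which the gene was tested and when any library was left out. Scaling by the basal keratinocyte markers moved most values: 6736 genes were called, 44 were higher and 7016 lower at the unadjusted p, and 3 of the 9 genes (Cd151, Lamc1 and Plec) and 16 list genes were called. In that scaling 0 of the 9 genes were higher and 9 lower in both KO libraries, against 3 higher and 29 lower list genes, and the log2 fold changes of Lama3, Lama5, Lamb3, Itga6, Itgb4 and Dst were reversed to -0.34, -1.11, -0.56, -0.23, -0.83 and -0.32. This follows from the construction, since the markers were 1.41 log2 units higher in KO libraries. With upper-quartile or median-ratio scaling 2 of the 9 genes were lower in both KO libraries. The share of all tested genes in that order was not counted under these scalings. Lower genes at the unadjusted p also rose there, from 539 to 667 and 700. Lama5 turned to -0.02 with the median ratio.

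Leaving out a library gave 0 to 2058 called genes, 266 to 1412 higher and 242 to 1605 lower genes at the unadjusted p, 0 to 4 called genes of the 9 and 0 to 19 of the lists. The highest of these counts were without KO replicate 1, where Itga6, Dst, Lamc1 and Plec were called (log2 fold changes 1.27, 1.34, -1.44 and -1.28) and the lone KO library is assumed to vary as the WT libraries do. Without KO replicate 2, 43 genes were called, 0 of them among the 9. The log2 fold change ran from -0.14 to 0.33 for Lama5 and from -0.85 to 0.03 for Cd151. Lama5 was reversed to -0.07 without WT replicate 1 and to -0.14 without KO replicate 1, Lamc1 to 0.05 without KO replicate 2, and Cd151 to 0.03 without WT replicate 2. With the filter of 5 FPKM Lama3 was not tested.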
